A study of Mus musculus with 18 samples.

Results

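The miRNAs described here were the 4 mature mouse miRNAs mmu-miR-126a-3p, mmu-miR-126a-5p, mmu-miR-143-3p and mmu-miR-145a-5p (written without the prefix from here on), chosen by name as miRNAs typical of blood vessels. They were 4 of 1978 mature miRNAs listed in the count table, of which 1054 had at least 1 count, and 4 of 203513 features of all RNA classes. All 4 passed the filter on low counts in every comparison. Over the 18 libraries together they held 10692, 2999, 3567 and 6056 counts in the order named, and single libraries held between 1 and 1757 counts of one of them.

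Small RNA was sequenced from cells that magnetic beads had separated from mouse brain. The WT and KIN mice were 10 months old, on a C57BL/6 background and untreated, and KIN mice were homozygous for Atxn2-CAG100-KIN, a knock-in of an expanded CAG repeat into the Atxn2 gene that serves as a model of spinocerebellar ataxia type 2. The repeat is in the germ line and so in all cell types. Each of the 6 groups (astrocytes, microglia or neurons, WT or KIN) held 3 libraries, which the labels call biological replicates. Per the study's methods, CD11b beads took out microglia, ACSA-2 beads then took out astrocytes, and neurons were what passed through after other cells had been bound, endothelial cells by CD31 beads among them. The CD31 step was thus applied to the neuron fraction and not to the other two. All 3 fractions were taken in turn from the same brain, so libraries of different fractions share animals. The labels do not say which replicate numbers mark a shared brain, and the comparisons between fractions treat libraries as independent, with the replicate number as a block among the alternatives.

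A miRNA is cut from a hairpin in a longer transcript and guides the silencing of mRNAs that match its seed, the bases near its 5′ end. miR-126 lies within Egfl7, a gene of endothelial cells, and is known from the lining of blood vessels, where it acts on signalling by vascular growth factors. miR-143 and miR-145 come from one transcript and are known from smooth muscle and pericytes, the mural cells that wrap vessels, where they favour the contractile state. In bulk fractions of this kind, fewer cells of a type and less RNA per cell cannot be told apart.

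In the mouse genome build mm39, the Mir126a hairpin lies on the plus strand of chromosome 2 from 26481369 to 26481441. It sits in an intron of 60 protein-coding transcripts of Egfl7 (chromosome 2, 26468286 to 26486789, plus strand), and in an exon of the retained-intron transcript Egfl7-206 and of 1 transcript marked for nonsense-mediated decay. A second hairpin, Mir126b, is annotated on the opposite strand at 26481375 to 26481432, inside the bases of the first.

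The sequences of the miR-126 arms are shown because both hairpins cover the same bases, so reads of one can be counted for the other. Capitals mark the seed, bases 2 to 8, and the letters are those of the deposited table. The RefSeq table held 3 of the 4 arms, with the same letters.
miR-126a-3p: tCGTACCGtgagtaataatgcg
miR-126a-5p: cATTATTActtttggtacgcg
miR-126b-3p: cGCGTACCaaaagtaataatgtg
miR-126b-5p: aTTATTACtcacggtacgagtt
Among all mature miRNAs listed, the seeds of miR-126a-3p, miR-126a-5p and miR-143-3p were each found in no other, and that of miR-145a-5p in 1 other, miR-145b, which had no count. The members therefore fell into 4 seed groups of their own. In the next pair, capitals mark the bases that the reverse complement of miR-126a-5p shares with miR-126b-3p.
reverse complement of miR-126a-5p: CGCGTACCAAAAGTAATAATG
miR-126b-3p: CGCGTACCAAAAGTAATAATGtg
All 21 bases of miR-126a-5p were contained in the 23 bases of miR-126b-3p on the opposite strand, and miR-126a-3p shared 19 of its 22 bases with miR-126b-5p in the same way.

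The authors' counting ignored the strand and kept reads of any mapping quality, and the shared bases showed in the counts. miR-126a-5p had 2999 counts and miR-126b-3p 2921, so that miR-126a-5p held 50.7% of their sum (95% Wilson interval 49.4 to 51.9%, counting error only). In the 12 libraries with at least 50 counts of the pair this share lay between 47.7 and 56.5%. The counts of miR-126a-5p and miR-126b-3p can therefore not be told apart, and a second reading with both summed is given where it bears on a value. miR-126b-5p, whose overlap with miR-126a-3p is partial, held only 131 counts against 10692 of miR-126a-3p.

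Near equal counts also appeared among the rows for longer transcripts. The hairpin row Mir126a-201 had 3048 counts and the host transcript Egfl7-206 3090, so the hairpin row held 49.7% of their sum. In the 12 libraries with enough counts it held between 49.4 and 50%, a narrower range than for the mature pair above. In WT neurons both rows held 3, 18 and 5 counts. Whether the same reads were counted on both rows or divided between them was not tested. The other transcripts of Egfl7 had 4 counts in all 18 libraries, so the Egfl7 counts do not measure the spliced mRNA. For miR-145a-5p the hairpin row Mir145a-201 held 45.3% of the counts of the hairpin and the mature row together, and for miR-143-3p the row Mir143-201 held 7.33%. The share of the Mir145a row lay between 44.5 and 47.8% in the 14 libraries with at least 50 counts, so the mature row held a near constant part of these counts. The authors mapped in rounds, mature miRNAs first, and state that only reads left unmapped went on. Whether reads were counted on both the hairpin and the mature row was not tested here.

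**Figure D1:**
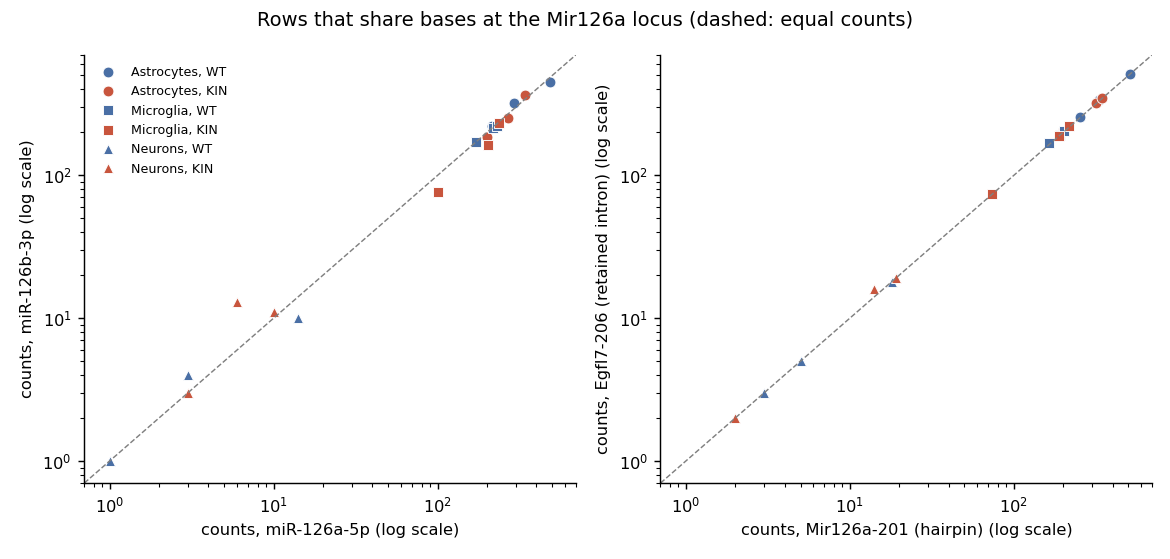
Counts of rows that share bases at the Mir126a locus, 1 point per library on log axes, with a dashed line where the counts would be equal. The points of miR-126b-3p against miR-126a-5p and of Egfl7-206 against Mir126a-201 lie along the line in all fractions, with pooled shares of 50.7 and 49.7%.

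The libraries held 1211118 to 4316748 counts. Mature miRNAs made up 5.05 to 10.3% of the counts in astrocyte libraries, 5.09 to 8.45% in microglia and 0.964 to 2.13% in neurons, and the mean share was higher in KIN than in WT astrocytes (9.30 ± 0.971% against 6.48 ± 1.66%, SD, n = 3) and microglia (7.56 ± 1.47% against 5.42 ± 0.501%). Levels are therefore given on 2 scales. CPM are counts scaled to a total of 1000000 over all features of a library, and miRNA CPM are scaled to the same total over mature miRNAs alone. Neither is a measure of RNA per cell. The paper reports equal RNA amounts for cDNA preparation and a lower RNA yield from neurons, and gives no input for each small RNA library.

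The labelled cell types were checked against markers. Summed levels of 3 miRNAs of myeloid cells, led by miR-142a-3p and miR-223-3p, reached 2835 to 5914 CPM in microglia and at most 377 CPM elsewhere, and 9 astrocyte genes, led by Slc1a2 and Atp1b2, reached 96.1 to 354 CPM in astrocytes and at most 12.7 CPM elsewhere. The neuronal genes, led by Map2 and Snap25, reached 24.0 to 36.3 CPM in WT neurons and 12.4 to 18.1 CPM in KIN neurons, but they also reached 6.78 to 26.7 CPM in WT astrocytes, 2.30 to 13.9 CPM in WT microglia and at most 7.26 CPM in the KIN glial fractions, so WT astrocytes overlapped the neurons. Snap25, a protein of synaptic release, had 47 counts in WT astrocytes, 31 in WT microglia and 6 in WT neurons. Syt1 (31, 9 and 11), Rbfox3 (12, 7 and 1), Slc17a7 (11, 9 and 2) and Nefl (12, 10 and 6) also had most in astrocytes. Tubb3 (9, 5 and 34), Gad1 (11, 9 and 17) and Map2 (56, 19 and 61) had most in neurons. These are raw counts, and neuron libraries held fewer counts in all. The transcript Tubb3-201 was called higher in neurons than in astrocytes and microglia, in WT and KIN. In addition, miR-124-3p and miR-128-3p, miRNAs of neurons, were lower in the neuron fraction (47.9 to 209 CPM) than in astrocytes (868 to 3030 CPM). Erythroid genes, led by the haemoglobin genes Hbb-bs and Hbb-bt, reached 19.0 to 140 CPM in neurons and at most 1.64 CPM elsewhere. Counts of Xist, an RNA of female cells, were 4 or 5 in the 3 libraries of KIN replicate 1 and 12 to 102 in all others. The study describes littermate pairs of the same sex, more of them male than female, and the counts did not split in that way. Values without KIN replicate 1 are given below for KIN over WT.

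Transcripts of vessel cells were scarce in all fractions. Apart from Egfl7 and Pecam1, 19 endothelial genes had 375 counts in all 18 libraries, and Cldn5, which seals the junctions between endothelial cells, had 5. Pecam1 itself, which encodes CD31, had 2820 counts, of which 2810 fell on a single retained-intron transcript, Pecam1-208. The log2 difference of Pecam1-208 for microglia over astrocytes was 1.35 in WT (edgeR adjusted p = 0.0244) and 0.89 in KIN (edgeR adjusted p = 0.113). For neurons it was 0.65 in WT and 0.11 in KIN over astrocytes, and −0.57 and −0.88 over microglia, with edgeR adjusted p above 0.05 in each. The 18 mural genes had 387 counts, led by Rgs5 with 66 and Notch3 with 61, both genes of pericytes, while the host gene Carmn had 0. Myh11, a myosin of smooth muscle, had 36 counts, all in neuron libraries. The 19 endothelial genes summed to 10.8 to 15.6 CPM in WT and 3.78 to 7.52 CPM in KIN astrocytes, to 3.45 to 7.91 and 1.59 to 3.01 CPM in microglia, and to 4.13 to 9.16 and 5.77 to 9.07 CPM in neurons. The mural genes summed to 11.1 to 14.0 and 5.37 to 8.72 CPM in astrocytes, to 2.88 to 6.54 and 0.466 to 1.62 CPM in microglia, and to 10.5 to 22.0 and 5.77 to 9.48 CPM in neurons. Their part in the miRNA levels was not tested.

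miR-126a-3p, the guide strand of the endothelial hairpin, was the most abundant member in both glial fractions. It stood at 277, 441 and 355 CPM in the 3 WT astrocyte libraries and at 343, 334 and 165 CPM in KIN astrocytes. In microglia it stood at 166, 202 and 188 CPM in WT and at 86.7, 161 and 181 CPM in KIN. In neurons it stood at 4.95, 22.5 and 12.4 CPM in WT and 29.0, 3.71 and 19.8 CPM in KIN, the lowest in each genotype from 6 and 9 counts. The genotypes overlapped in each fraction. All neuron libraries were below all glial ones, also for miR-126a-5p and miR-145a-5p, as were 28.5% of features for neurons against astrocytes and 21.5% against microglia in WT, and 27 and 23.3% in KIN. By mean CPM the order was WT astrocytes (358 ± 82.2, SD, n = 3), KIN astrocytes, WT microglia (185 ± 18.6), KIN microglia (142.7 ± 49.5), KIN neurons (17.5 ± 12.8) and WT neurons (13.3 ± 8.80), and neighbours in this order overlapped except KIN microglia and KIN neurons.

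miR-126a-5p, the other arm of that hairpin, followed the same order of fractions at a lower level. WT astrocytes had 68.7, 121 and 89.3 CPM and KIN astrocytes 98.9, 74.4 and 54.0 CPM. WT microglia had 49.5, 63.1 and 62.7 CPM and KIN microglia 31.8, 47.0 and 55.2 CPM. Neurons had 0.826, 7.16 and 1.96 CPM in WT and 4.27, 1.24 and 2.47 CPM in KIN, from 1 to 14 counts per library, so single neuron values of this arm carry wide counting error. With the counts of miR-126b-3p added, mean CPM was 187 in WT and 151 in KIN astrocytes. It was 116 and 83.3 in microglia and 6.17 and 6.42 in neurons, in the same order.

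The hairpins of the mural members lie elsewhere in mm39. The Mir143 hairpin (chromosome 18, 61782267 to 61782329) and the Mir145a hairpin (61780896 to 61780965) both lie on the minus strand with 1301 bases between them, and Mir143 overlaps the end of the noncoding host gene Carmn (61782325 to 61799611). The 2 members of this cluster are described next.

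miR-143-3p, the main arm of the first mural hairpin, was the member whose CPM varied least between WT fractions. WT astrocytes had 39.1, 104 and 78.3 CPM, WT microglia 46.1, 75.7 and 66.3 CPM and WT neurons 68.5, 72.1 and 17.0 CPM. The corresponding means were 73.9 ± 32.8, 62.7 ± 15.1 and 52.5 ± 30.8 CPM (SD, n = 3), and the 3 fractions overlapped. In KIN the libraries had 104, 109.5 and 97.8 CPM in astrocytes, 22.2, 45.9 and 55.6 CPM in microglia and 55.0, 18.5 and 24.3 CPM in neurons, where astrocytes lay above all libraries of the other fractions (31.6% of features were lower without overlap in KIN microglia than in KIN astrocytes).

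miR-145a-5p, the arm cut from the neighbouring mural hairpin, differed more between fractions in CPM than miR-143-3p. Astrocytes had 158, 203 and 201 CPM in WT and 188, 200.4 and 172 CPM in KIN. Microglia had 99.1, 125.8 and 105 CPM in WT and 37.2, 63.0 and 80.1 CPM in KIN, which did not overlap. Neurons had 7.43, 24.5 and 9.16 CPM in WT and 35.0, 6.59 and 7.84 CPM in KIN. On CPM the mean level of miR-145a-5p was thus highest in astrocytes (187 ± 25.3 CPM in WT), then in microglia (110 ± 14.0 CPM) and lowest in neurons (13.7 ± 9.41 CPM), while the WT fractions overlapped for its cluster partner.

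**Figure D2:**
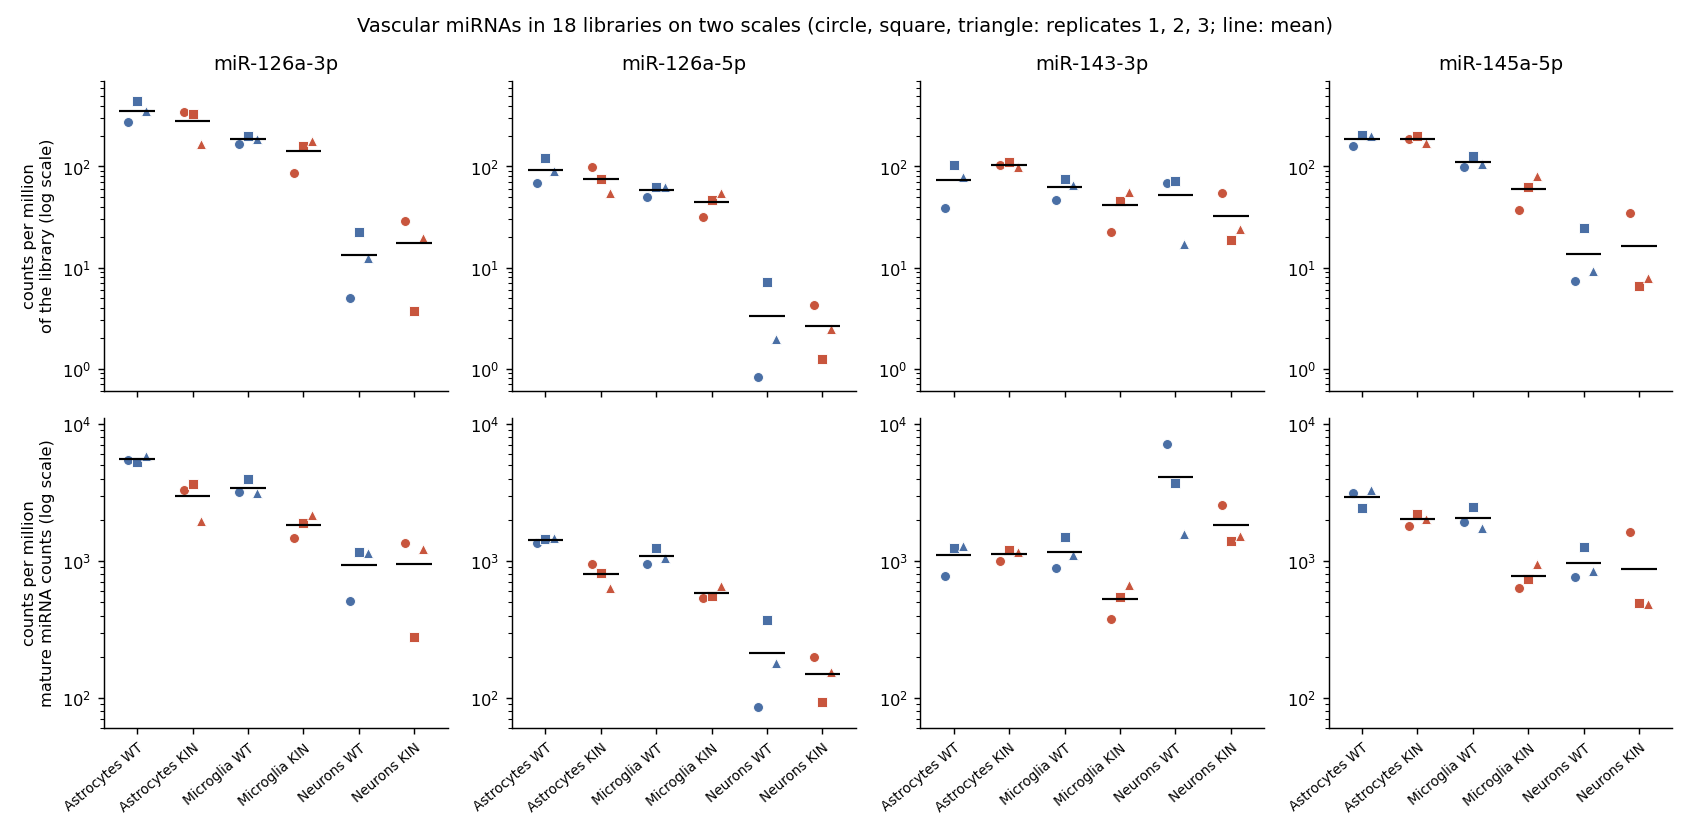
Levels of the 4 miRNAs in all 18 libraries on log axes, in CPM (upper row) and miRNA CPM (lower row), with WT in blue, KIN in red, circles, squares and triangles for replicates 1, 2 and 3 and a line at each mean. The arms of miR-126a are lowest in neurons on both scales and miR-145a-5p in CPM, while miR-143-3p overlaps the WT glial levels in CPM and is highest in neurons in miRNA CPM.

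On the second scale the neuron libraries changed place for one member. miR-143-3p stood at 7109, 3732 and 1573 in miRNA CPM in WT neurons, against 775, 1255 and 1287 in WT astrocytes and 891, 1489 and 1106 in WT microglia. All WT neuron libraries were above all WT glial ones, as held for 19.9% of mature miRNAs against astrocytes and 22.7% against microglia, though they differed from each other by more than any other group of this member. miR-126a-3p stood at 514, 1165 and 1149 in miRNA CPM in WT neurons against 5485, 5315 and 5825 in WT astrocytes, so this member was still lowest in neurons. For miR-145a-5p the mean in miRNA CPM was 963 in WT neurons, below 2957 and 2047 in WT astrocytes and microglia, but in KIN neurons it was 876, not below the 779 of KIN microglia.

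The effect of the knock-in was asked first within each fraction. A call required a log2 difference of at least 1 in either direction and an adjusted p of at most 0.05 from edgeR's quasi-likelihood test with Benjamini-Hochberg adjustment over all features. None of the 4 members passed in any fraction, where 8.18% of 5694 features passed in astrocytes, 4.35% of 4940 in microglia and 0 of 4535 in neurons. In neurons 197 features were at 0.05 or below before adjustment, and DESeq2 also called 0.

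In astrocytes the log2 difference of KIN over WT was −0.23 ± 0.27 (SE) for miR-126a-3p and −0.18 ± 0.27 for miR-126a-5p, with edgeR adjusted p of 0.585 and 0.668. It was 0.60 ± 0.31 for miR-143-3p (edgeR adjusted p = 0.195) and 0.12 ± 0.16 for miR-145a-5p (edgeR adjusted p = 0.622). The value of miR-143-3p rested on WT replicates 1 and 2, which were lowest and highest. Without WT replicate 2 it was 0.95 ± 0.25 (edgeR adjusted p = 0.0137, still short of the fold required), and without WT replicate 1 it was 0.26. Without KIN replicate 1 the 4 values were −0.37, −0.39, 0.62 and 0.14 in the order miR-126a-3p, miR-126a-5p, miR-143-3p and miR-145a-5p, none called. Among the vessel cell transcripts that passed the filter, 0 of 5 endothelial and 0 of 3 mural ones were called in astrocytes, with median log2 differences of −0.62 and −0.53. The endothelial ones included Egfl7-206, whose counts were near equal to those of the Mir126a hairpin row. Without Egfl7-206 the median of the other 4 was −0.63.

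Most mature miRNAs had higher values in KIN than in WT astrocytes, unlike the arms of miR-126a. The median log2 difference of the 418 mature miRNAs tested was 0.58, with 346 of them above 0, whereas that of all features was −0.19 and that of the 4 members −0.03. Only 9.33% of the mature miRNAs had a lower difference than miR-126a-3p and 11.2% a lower one than miR-126a-5p, against 22.5% for miR-145a-5p and 51.7% for miR-143-3p. In miRNA CPM, miR-126a-3p had 5485, 5315 and 5825 in WT and 3316, 3654 and 1957 in KIN astrocytes, without overlap. miR-126a-5p and miR-145a-5p were also lower in all KIN libraries on this scale, as were 18.4% of mature miRNAs, while miR-143-3p overlapped.

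When the fit was scaled to mature miRNAs alone, miR-126a-3p differed by −0.93 ± 0.26 in astrocytes (edgeR adjusted p = 0.0241) and miR-126a-5p by −0.87 ± 0.27 (edgeR adjusted p = 0.0321). Both missed the required fold. miR-145a-5p then stood at −0.59 ± 0.25 (edgeR adjusted p = 0.0764) and miR-143-3p at −0.01, so the sign of both depended on the scaling. This scaling moved the median of all features in astrocytes to −0.91.

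In microglia none of the 4 members passed, and the values depended on 1 library. With all libraries they were −0.19 ± 0.27 for miR-126a-3p, −0.19 ± 0.26 for miR-126a-5p and −0.42 ± 0.35 for miR-143-3p, with edgeR adjusted p of 0.755, 0.751 and 0.522. miR-145a-5p had −0.68 ± 0.29 (edgeR adjusted p = 0.180), and its KIN libraries were all below its WT libraries, as held for 18.5% of features. Without KIN replicate 1, the library with the lowest level of all 4 members, it was −0.51 ± 0.27 (edgeR adjusted p = 0.303), and the other values were 0.00022 for miR-126a-3p, −0.07 for miR-126a-5p and −0.19 for miR-143-3p. The members' median was −0.31, beside 0.46 for the 382 mature miRNAs tested and −0.11 for all features.

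In miRNA CPM, all 4 members were lower in every KIN than in every WT microglia library, a pattern shared by 33.2% of mature miRNAs. miR-145a-5p had 1916, 2474 and 1752 in WT and 634, 745 and 958 in KIN. Scaled to mature miRNAs, its log2 difference was −1.12 ± 0.26 (edgeR adjusted p = 0.0359), which passed, as did 6.66% of features under that scaling. Without KIN replicate 1 it was −1.003 ± 0.236 under that scaling (edgeR adjusted p = 0.0329), at the limit of the fold required. The other members had −0.62 ± 0.24, −0.61 ± 0.24 and −0.86 ± 0.30 for miR-126a-3p, miR-126a-5p and miR-143-3p, with edgeR adjusted p of 0.145, 0.156 and 0.114.

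In neurons no member was called and the standard errors were wider than in the glial fractions. The log2 differences were 0.35 ± 0.68 for miR-126a-3p, −0.43 ± 0.73 for miR-126a-5p, −0.72 ± 0.59 for miR-143-3p and 0.22 ± 0.68 for miR-145a-5p, with edgeR adjusted p between 0.917 and 0.973. The WT and KIN libraries overlapped for each member, and the sign of the first 2 and the last changed when single libraries were left out. Without KIN replicate 1 they were −0.20, −0.90, −1.29 and −0.92 in the same order, none called. With the reads of miR-126a-5p and miR-126b-3p summed, the neuron value of that arm was −0.02.

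**Figure D3:**
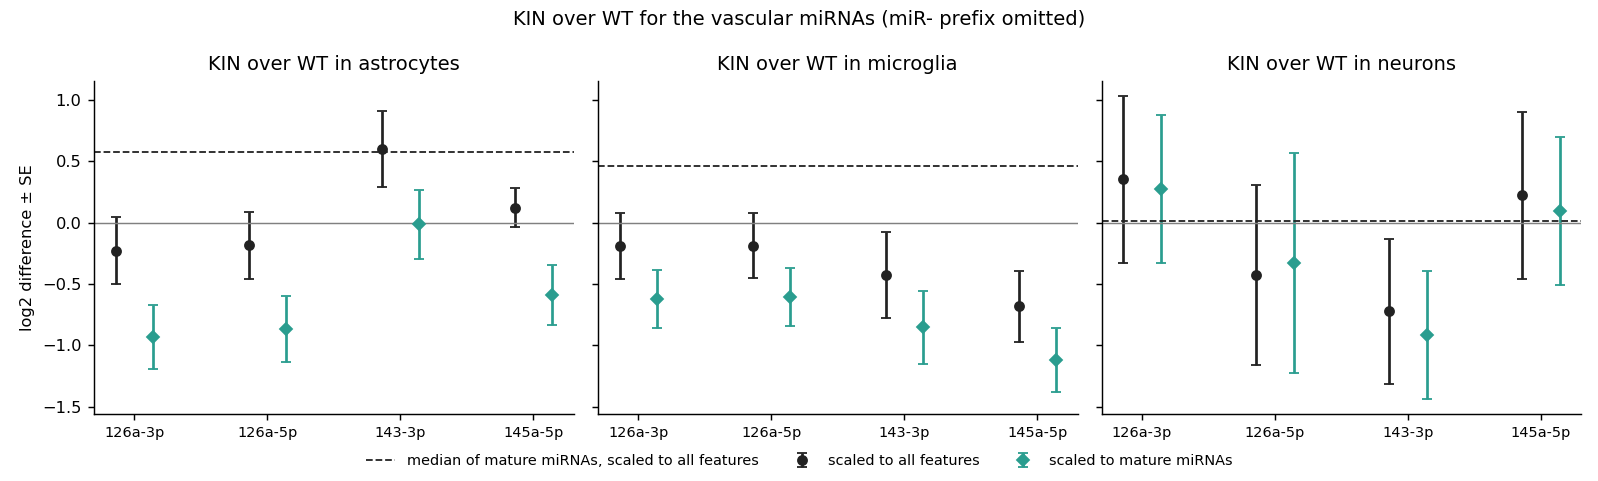
Log2 difference of KIN over WT for each miRNA in each fraction with its standard error, from fits scaled to all features and to mature miRNAs alone, beside the median of all mature miRNAs. In astrocytes and microglia the miR-126a arms and miR-145a-5p lie below the mature miRNA median (0.58 and 0.46), and only miR-145a-5p in microglia passes, at −1.12 with miRNA scaling.

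The KIN effect was then compared between fractions by an interaction term. None of the 4 members was called in any of the 3 comparisons, with 0.312% of features called for microglia against astrocytes, 0 for neurons against astrocytes (598 at 0.05 or below before adjustment, and 0 called by DESeq2) and 0.639% for neurons against microglia. The effect in microglia minus that in astrocytes was −1.02 ± 0.52 for miR-143-3p (edgeR adjusted p = 0.516) and −0.80 ± 0.37 for miR-145a-5p (edgeR adjusted p = 0.474). It was 0.05 ± 0.43 and 0.00 ± 0.36 for the arms of miR-126a. For neurons minus astrocytes the values were 0.47, −0.36, −1.41 and −0.03 in the order miR-126a-3p, miR-126a-5p, miR-143-3p and miR-145a-5p, and for neurons minus microglia 0.37, −0.41, −0.44 and 0.74. The signs of several of these turned with the setting.

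Between WT microglia and WT astrocytes none of the 4 members was called, beside 31.5% of 6397 features. Both arms of miR-126a and miR-145a-5p were lower in all microglia than in all astrocyte libraries, as were 29.2% of features. miR-126a-3p came closest, with a log2 difference of microglia over astrocytes of −0.83 ± 0.27 (edgeR adjusted p = 0.0338), short of the required fold, and it was called without WT microglia replicate 2 (−1.04, edgeR adjusted p = 0.00706). The others had −0.56 ± 0.31 for miR-126a-5p, −0.12 ± 0.40 for miR-143-3p and −0.63 ± 0.27 for miR-145a-5p, with edgeR adjusted p of 0.185, 0.846 and 0.0848. With the replicate number as a block, miR-126a-3p had −0.81 (edgeR adjusted p = 0.00535) and miR-145a-5p −0.65 (edgeR adjusted p = 0.0234), both still short of the fold.

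In KIN, the 2 mural miRNAs were lower in microglia than in astrocytes. miR-145a-5p had −1.51 ± 0.25 (edgeR adjusted p = 0.000382) and miR-143-3p −1.21 ± 0.28 (edgeR adjusted p = 0.00386), both called, as were 21.2% of features in the lower direction. In a fit of all 18 libraries miR-143-3p lost its call (−1.20, edgeR adjusted p = 0.0809). miR-126a-3p had −0.85 ± 0.30 (edgeR adjusted p = 0.0368) and miR-126a-5p −0.63 ± 0.26 (edgeR adjusted p = 0.0706), neither called. miR-126a-3p was called without KIN astrocyte replicate 3 (−1.15) or without KIN microglia replicate 3 (−1.03). A call in KIN and none in WT does not show that the genotypes differ, and the interaction above did not pass.

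WT neurons had less of 3 members than WT astrocytes, and miR-143-3p was not called. The log2 difference was −4.92 ± 0.57 for miR-126a-3p (edgeR adjusted p = 0.0018), −4.89 ± 0.68 for miR-126a-5p (edgeR adjusted p = 0.00236) and −3.94 ± 0.53 for miR-145a-5p (edgeR adjusted p = 0.00208). These 3 of 4 were called, beside 18.5% of features called lower. miR-143-3p had −0.72 ± 0.59 (edgeR adjusted p = 0.357). Of 362 mature miRNAs tested, 212 were called lower and their median was −2.66, so the first 3 fell below it and miR-143-3p stood above it.

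Against WT microglia, a comparison that shares the neuron libraries, the same 3 members were lower. miR-126a-3p had −3.98 ± 0.54, miR-126a-5p −4.24 ± 0.65 and miR-145a-5p −3.19 ± 0.52, with edgeR adjusted p of 0.000915, 0.00146 and 0.00202, and 14.5% of features were called lower. miR-143-3p had −0.48 ± 0.54 (edgeR adjusted p = 0.536), beside a median of −2.56 over 343 mature miRNAs, of which 198 were called lower.

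In KIN, all 4 members were called lower in neurons than in astrocytes, as were 330 of the 397 mature miRNAs tested. The median over the 397 was −3.43. The log2 differences were −4.29 ± 0.34 for miR-126a-3p, −5.07 ± 0.37 for miR-126a-5p, −1.94 ± 0.28 for miR-143-3p and −3.78 ± 0.34 for miR-145a-5p, with edgeR adjusted p of 5.05e-14, 4.83e-15, 1.4e-07 and 1.25e-12, and 24.1% of features were called lower. Against KIN microglia 3 of 4 were called, beside 26.2% of features and 274 of 360 mature miRNAs called lower (median −3.09 over the latter). These were miR-126a-3p (−3.51 ± 0.45, edgeR adjusted p = 5.16e-07), miR-126a-5p (−4.53 ± 0.43, edgeR adjusted p = 5.77e-09) and miR-145a-5p (−2.34 ± 0.46, edgeR adjusted p = 0.000163). miR-143-3p had −0.81 ± 0.38 (edgeR adjusted p = 0.0765) and was called lower without KIN microglia replicate 1 (−1.06) or without KIN neuron replicate 1 (−1.36). No other call between neurons and glia was lost or gained when single libraries were left out.

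Scaled to mature miRNAs alone, miR-143-3p was higher in neurons than in either glial fraction, in both genotypes. Its log2 difference was 1.75 ± 0.55 over WT astrocytes (edgeR adjusted p = 0.00475), 1.53 ± 0.53 over WT microglia (edgeR adjusted p = 0.0222), 1.12 ± 0.27 over KIN astrocytes (edgeR adjusted p = 0.000301) and 1.66 ± 0.35 over KIN microglia (edgeR adjusted p = 0.000133). Under that scaling 49.5, 55.3, 81.7 and 74.6% of all features were called higher in these comparisons, in the same order. The arms of miR-126a remained lower in neurons, at −2.62 and −2.66 over WT astrocytes. miR-145a-5p was lower in WT neurons, at −1.69 over astrocytes and −1.30 over microglia, but in KIN it reached −0.77 over astrocytes, below the required fold, and 0.10 over microglia.

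**Figure D4:**
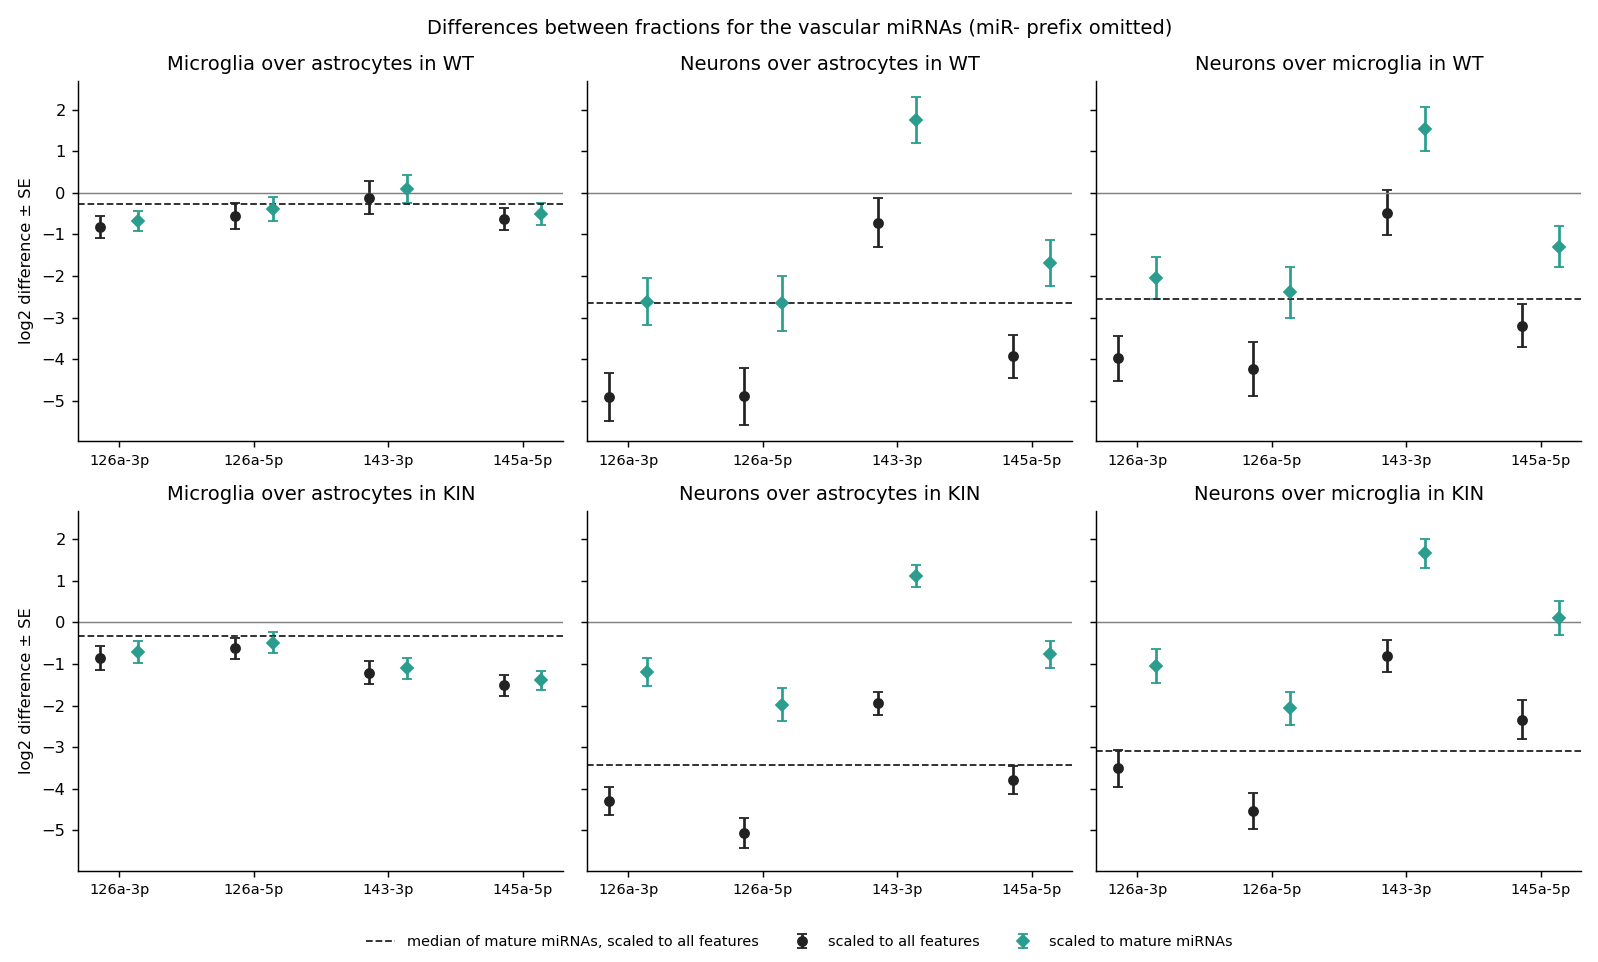
Log2 differences between fractions for each miRNA with standard errors, in WT and KIN, from fits scaled to all features and to mature miRNAs alone. In the comparisons of neurons with glia the miR-126a arms are negative under both scalings, while miR-143-3p is negative under the first and positive, from 1.12 to 1.75, under the second.

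Ratios of 2 members within a library, formed after 0.5 was added to each count, do not depend on the scaling. The count of miR-126a-3p was 2.71 to 7.46 times that of miR-126a-5p over the 18 libraries, and its mean log2 ratio lay between 1.64 and 2.35 in the 6 groups. Against the summed counts of miR-126a-5p and miR-126b-3p it was 1.46 to 3.19 times as high. Of the 18 ratio comparisons, 8 had groups that did not overlap, and none could pass a threshold of 0.05, since an exact permutation test of 3 against 3 libraries reaches 0.1 at least. After adjustment over the 18 comparisons the smallest p of the exact tests was 0.225.

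The ratio of miR-126a-3p to miR-143-3p, an endothelial over a mural miRNA, separated neurons from glia. It was 7.06, 4.23 and 4.52 in WT astrocytes and 3.59, 2.67 and 2.84 in WT microglia, but 0.0778, 0.314 and 0.736 in WT neurons. The mean log2 ratio in WT neurons differed by −4.29 from that in astrocytes and by −3.52 from that in microglia (exact two-sided permutation p = 0.1 for each, adjusted 0.225). KIN neurons had 0.529, 0.209 and 0.815. These ratios of single rows were below 1 in the neuron and above 1 in the glial libraries, but with all rows of each hairpin summed the ratio of the Mir126 to the Mir143 locus was 0.164, 0.690 and 1.33 in WT neurons and 0.896, 0.379 and 1.56 in KIN neurons. In glia it was then 3.60 to 14.0, still above all neuron libraries. The Mir126 sum also held the row of the Egfl7 host transcript, whose counts were near equal to those of the Mir126a hairpin row. The Mir143 sum held no such row. If the same reads were counted on both rows, which was not tested, the sum raises this ratio in all libraries.

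In astrocytes this ratio was also lower in KIN, at 3.29, 3.04 and 1.69, than in any WT library. The difference in mean log2 ratio was −0.999 (exact two-sided permutation p = 0.1, adjusted 0.225). In microglia the KIN values of 3.88, 3.50 and 3.24 overlapped those of WT, with a difference of 0.23 (exact two-sided permutation p = 0.3).

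The 2 mural miRNAs of one cluster did not keep a fixed ratio. miR-145a-5p over miR-143-3p was 4.03, 1.94 and 2.56 in WT astrocytes, 2.15, 1.66 and 1.58 in WT microglia and 0.114, 0.343 and 0.547 in WT neurons. Neurons had the lowest values, without overlap, by −3.29 on the log2 scale against astrocytes and −2.68 against microglia (exact two-sided permutation p = 0.1 for each, adjusted 0.225). KIN neurons had 0.637, 0.363 and 0.328. Since the hairpin row held a larger share of the miR-145a-5p than of the miR-143-3p counts, the ratio was also formed with all rows of each hairpin summed. It was then 0.198, 0.624 and 1.00 in WT neurons, 1.12, 0.650 and 0.520 in KIN neurons and 2.31 to 7.04 in glia. If reads were counted on both the hairpin and the mature row, the sum raises miR-145a-5p more than miR-143-3p. By the authors' successive rounds a read on the mature row would not reach the hairpin row, but this was not tested. KIN astrocytes, with 1.80, 1.83 and 1.75, lay below all WT astrocytes, with a difference of −0.60 (exact two-sided permutation p = 0.1).

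**Figure D5:**
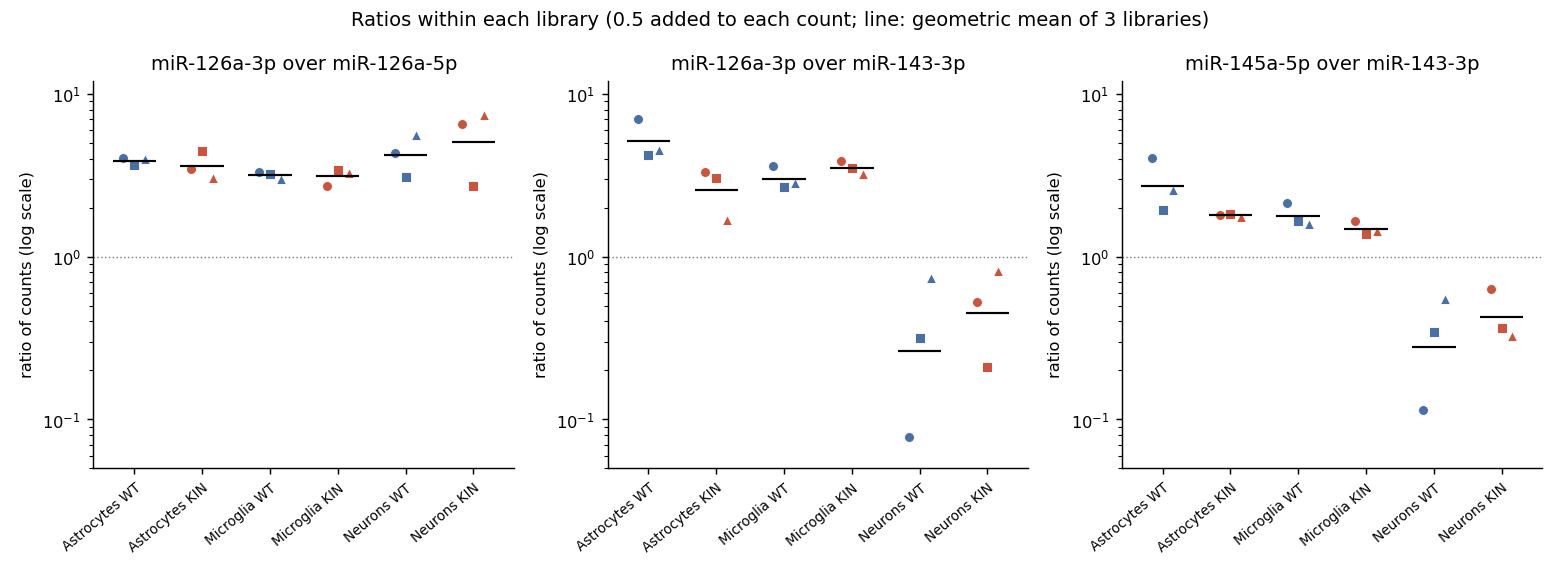
Ratios of counts of 2 miRNAs within each library on a log axis, by group, with circles, squares and triangles for replicates 1, 2 and 3. The ratio of miR-126a-3p to miR-126a-5p stays between 2.71 and 7.46 in all groups, while miR-126a-3p and miR-145a-5p over miR-143-3p, each from the mature row alone, lie lower in neuron than in glial libraries.

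Across the 18 libraries, log2(CPM + 1) of miR-126a-3p correlated with miR-126a-5p at a Pearson r of 0.98, with miR-145a-5p at 0.96 and with miR-143-3p at 0.60. These values mostly describe the difference between neurons and glia, and the libraries share the same 6 groups. Over deviations from the group means, r was 0.87, 0.78 and 0.45. miR-143-3p and miR-145a-5p, which share a transcript, correlated at 0.71, and at 0.68 over deviations. In miRNA CPM that last pair had −0.03 over all libraries, and miR-126a-3p and miR-143-3p had −0.42, and −0.01 over deviations.

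Among 212 mature miRNAs with a mean of at least 20 counts, those most like miR-126a-3p over the 18 libraries were miR-674-5p (r = 0.97), let-7d-5p (0.96), miR-29c-3p (0.95), miR-30e-3p (0.95) and let-7d-3p (0.95). The closest to miR-143-3p were miR-181a-1-3p (0.75), miR-598-3p (0.73), miR-30a-5p (0.72), miR-194-5p (0.72) and miR-26a-5p (0.72), all with a lower r than the 5 closest to miR-126a-3p. In miRNA CPM only miR-674-5p and miR-181a-1-3p stayed among the 5 closest to their member. All of these values share library depth and the split between neurons and glia.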

How the data were processed

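Small RNA libraries of 6 groups (3 fractions, WT or KIN, 3 libraries each, groups and replicate numbers from the titles) were analysed. The authors trimmed reads with Cutadapt 4.6 (minimum length 20), placed them with Bowtie2 2.4.4 in local mode in successive rounds on mature miRNAs, tRNAs, piRNAs, noncoding and coding transcripts of mm39, and counted with HTSeq 2.0.2. The deposited counts are whole-number counts per feature and not normalized, with 1211118 to 4316748 per library. Collapsing by molecular identifiers is not stated for these libraries, so intervals cover counting error only. The table's log2 fold changes and p-values of the authors' own comparisons were not used, nor were 36 other columns of per-library values.

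Features that reached 5 counts in 2 or more libraries of a comparison were fitted with edgeR 4.0.16 (limma 3.58.1, R 4.3.3; TMM scaling, quasi-likelihood test) on the libraries of that comparison, and a call needed both an adjusted p of 0.05 or less and a log2 difference of 1 or more in size. Scripts were tested on simulated data. Ratios had 0.5 added to each count and exact two-sided permutation tests. Alternatives were DESeq2 1.42.0, library totals, scaling to mature miRNAs, no filter, 1 fit of all 18 libraries, a replicate block and leaving out each library. Sums over rows with shared reads, and miRNA scaling without KIN microglia replicate 1, were chosen after seeing the data. Named were the 4 members, rows of their hairpins and hosts, the 5 miRNAs most alike, and the 2 genes with the most counts of each marker list the text uses. Cldn5, Carmn, Myh11, Xist and the neuronal genes other than Map2 and Snap25 were named after their values were seen. The members, lists and rules were chosen with earlier results of these data known.

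The fractions came from shared brains per the study's methods, but the labels do not say that a replicate number marks a brain. Deviations of same-numbered libraries correlated positively throughout only between the WT fractions and for KIN and WT astrocytes. The correlations were 0.171 to 0.409 for WT microglia and astrocytes and 0.194 to 0.441 for WT neurons and astrocytes. They were 0.0255 to 0.305 for WT neurons and microglia and 0.0372 to 0.217 for KIN and WT astrocytes. No 2 libraries of a group agreed within sampling noise.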

Additional observations from a re-analysis of the deposited data

How the results depend on the processing

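Under the alternatives, 474 values of the members between 2 groups kept their direction and call, 25 turned, 7 gained and 2 lost a call. Of the interaction values, 192 kept their direction and 48 turned, none of them a call. No call between neurons and glia turned with all features as the scale. Neuron libraries held 1 to 82 counts of miR-126a or miR-145a-5p, where counting error and the spread between libraries were not told apart. The cause of each turn was not tested beyond what its setting shows.

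Scaling to mature miRNAs moved the most. KIN over WT in astrocytes became −0.015 for miR-143-3p and −0.59 for miR-145a-5p, in microglia 1 of 4 was called, and microglia over astrocytes in WT became 0.094 for miR-143-3p. Neurons over astrocytes and over microglia became 1.75 and 1.53 for miR-143-3p in WT and 1.12 and 1.66 in KIN. In KIN, miR-145a-5p became −0.77 over astrocytes, losing its call, and 0.10 over microglia. The interaction of microglia minus astrocytes became 0.15 for miR-126a-5p, that of neurons minus astrocytes 0.56 for miR-126a-5p and 0.83 for miR-145a-5p, and that of neurons minus microglia 0.32 for miR-126a-5p and 0.081 for miR-143-3p. The calls of all features then split into 16 higher and 1478 lower for KIN over WT in astrocytes (102 and 364 before), into 2926 and 178 for neurons over astrocytes in WT (606 and 1092), 2855 and 224 for neurons over microglia in WT (695 and 751), and in KIN 4086 and 200 (1111 and 1203) and 3640 and 302 (1305 and 1279). In microglia the share of higher calls for KIN over WT went from 32.6 to 6.38%.

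Other settings turned values near 0. Library totals gave −0.0060 for miR-145a-5p in KIN over WT astrocytes, −0.025 for miR-126a-3p in microglia minus astrocytes and 0.22 for miR-145a-5p in neurons minus astrocytes. Without the filter, KIN over WT in astrocytes was 0.0072 for miR-126a-5p, microglia minus astrocytes −0.12 for miR-126a-3p, neurons minus astrocytes 0.0083 for miR-126a-5p and 0.34 for miR-145a-5p, and neurons minus microglia 0.0014 for miR-143-3p. DESeq2 gave 0.10 for miR-126a-5p in microglia minus astrocytes and 0.17 for miR-145a-5p in neurons minus astrocytes, where the fit of all 18 libraries gave 0.20. In that fit 1 of 4 was called for microglia over astrocytes in KIN. Summing all rows of a hairpin turned miR-126a-5p to 0.19 in KIN over WT neurons and to 0.0043, 0.30 and 0.24 in the interactions. For miR-126a-5p that sum included the row of the Egfl7 host transcript. Summing miR-126a-5p with miR-126b-3p gave 0.060 and 0.086 for neurons minus astrocytes and minus microglia, and turned the KIN over WT ratio of miR-126a-3p to this arm to 0.077 in microglia and −0.028 in neurons. With 1 added to each count, that ratio was −0.047 for neurons over astrocytes in WT.

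The replicate block turned miR-145a-5p in KIN over WT neurons to −0.014 and changed no call of a member. Correlations of same-numbered libraries were positive throughout only between the WT fractions and for KIN and WT astrocytes.

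Leaving out single libraries moved KIN over WT in astrocytes from −0.43 to 0.036 for miR-126a-3p, −0.41 to 0.069 for miR-126a-5p and −0.040 to 0.19 for miR-145a-5p, in microglia from −0.41 to 0.00022 for miR-126a-3p, and in neurons from −0.20 to 0.90, −0.90 to 0.79 and −0.92 to 0.89 for miR-126a-3p, miR-126a-5p and miR-145a-5p. The number called for microglia over astrocytes in WT ranged from 0 to 1, where miR-143-3p ranged from −0.43 to 0.44. Microglia minus astrocytes ranged from −0.38 to 0.29 for miR-126a-3p and −0.48 to 0.21 for miR-126a-5p. Neurons minus astrocytes ranged from −0.70 to 1.18 for miR-126a-5p and −1.01 to 1.01 for miR-145a-5p. Neurons minus microglia ranged from −0.19 to 1.31, −0.89 to 1.2, −1.02 to 0.26 and −0.40 to 1.85 for miR-126a-3p, miR-126a-5p, miR-143-3p and miR-145a-5p. The ratio of the miR-126a arms ranged from −0.25 to 0.025 for KIN over WT in astrocytes, −0.090 to 0.073 in microglia and −0.087 to 0.34 for neurons over astrocytes in WT. The KIN over WT ratios in neurons ranged from −0.10 to 1.52 for miR-126a-3p over miR-143-3p and −0.034 to 1.10 for miR-145a-5p over miR-143-3p.

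Counts of all features called moved too. KIN over WT in astrocytes had 466, with 1494 under miRNA scaling, 159 in the fit of all libraries and 41 to 1527 without single libraries. In microglia 215 became 378 by DESeq2, 329 under miRNA scaling, 426 without the filter, 49 with the replicate block, 334 in the fit of all libraries and 0 to 940 without single libraries. In neurons 0 became 20 under miRNA scaling, 75 without the filter and 0 to 52 without single libraries. Neurons over astrocytes in WT had 1698, with 3104 under miRNA scaling, 2674 in the fit of all libraries and 911 at the least without a library, and neurons over microglia in WT 1446, with 3079 and 867. In KIN miRNA scaling gave 4286 in place of 2314 and 3942 in place of 2584. Microglia minus astrocytes had 22, with 136 by DESeq2, 53 by library totals, 10 under miRNA scaling, 108 without the filter, 75 with the block, 12 in the fit of all libraries and 0 to 362 without single libraries. Neurons minus astrocytes had 0, with 5 without the filter, 20 with the block and 0 to 2 without single libraries. Neurons minus microglia had 41, with 139, 81, 100, 113 and 101 by DESeq2, miRNA scaling, no filter, the block and the fit of all libraries, and 0 to 120 without single libraries.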
